A study of Drosophila melanogaster with 23 samples.

Results

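Ovaries in which Set2 was the target of germline RNAi were set directly against ovaries labelled as germline RNAi of msl-3, with no library of another genotype in the contrast. The members were chosen by their labels alone: 4 of the 23 libraries of the series, 2 labelled Set2 RNAi and 2 labelled MSL3 RNAi. The genotypes were Set2 RNAi>UAS-Dcr2;nosGAL4 and msl3 RNAi>UAS-Dcr2;nosGAL4, so both groups carried the germline driver nos-GAL4 and a UAS transgene of Dicer-2, which strengthens RNAi. All 4 were poly(A) RNA libraries of ovaries dissected 1 to 5 days after eclosion. Beside them stand 2 NC2b RNAi libraries with the same driver and transgene, and 1 library of whole ovaries with the driver and Dcr2 transgene but no RNAi. The driver acts in germ cells, while the dissected ovary also holds escort and follicle cells, sheath muscle and attached tissue. The labels name no RNAi line and do not say that the libraries of a pair came from separate dissections, so the p-values measure only the spread between libraries. The design text sets the Set2 RNAi libraries against another pair of hsbam control libraries than it does the MSL3 RNAi and NC2b RNAi libraries. The hsbam libraries are of another genotype and stay outside the contrast. Anything else that differed between those sets of libraries cannot be told apart from the labelled RNAi target.

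Set2 is the methyltransferase that places trimethylation on lysine 36 of histone H3 along transcribed gene bodies. MSL3 carries a chromodomain that binds this mark, and in males it is a subunit of the MSL complex, which raises transcription of the X chromosome. In the ovary, germline stem cells divide to give cystoblasts, whose cysts enter meiosis, build the synaptonemal complex, choose an oocyte and load it with maternal mRNA and ribosomes. Setting both groups side by side asks where ovaries with RNAi of the enzyme, and ovaries labelled as RNAi of a reader of its mark, hold different transcripts.

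Total counts were 15492449 and 20722931 in the Set2 RNAi libraries and 34828261 and 31419398 in MSL3 RNAi 1 and 2. Across 9253 genes, log2 CPM (reads of a gene as a share of the library's total, scaled alike in all libraries) correlated at 0.981 between the Set2 RNAi libraries, at 0.957 between the MSL3 RNAi libraries, and at 0.893 to 0.94 between the groups. MSL3 RNAi 2 stood above MSL3 RNAi 1 in several lists outside the germline. The median log2 difference of MSL3 RNAi 1 minus 2 was -1.70 for fat body and blood cells, -1.59 for muscle, -1.29 for escort, cap and terminal filament genes, -1.28 for immune genes, -1.27 for nerve and -1.16 for detoxification.

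With edgeR's quasi-likelihood test on the 4 libraries, 2 of 9253 genes (0.0216%) passed an adjusted p of 0.05, both higher in Set2 RNAi, and none was lower. At an unadjusted p under 0.05 there were 1395 higher (15.1%) and 1485 lower (16.0%), together 31.1%, and limma-voom called none. DESeq2 called 640 higher (6.68%) and 1169 lower (12.2%). When the 2 NC2b RNAi libraries were added to the edgeR fit to help estimate the spread (from here on the 6-library fit), 695 genes were higher (7.28%) and 679 lower (7.12%) of 9542 tested, together 14.4%. Of these, 314 and 475 differed at least 2-fold, and 1204 were also DESeq2 calls, all with the same sign (87.6% of the 6-library calls and 66.6% of the DESeq2 calls). The 6-library calls were fragile: without Set2 RNAi 1 or Set2 RNAi 2 there were 0, and without NC2b RNAi 1 or NC2b RNAi 2 there were 4. Without MSL3 RNAi 2 there were 1833, and without MSL3 RNAi 1 there were 3151. List counts below are therefore given as calls of the 6-library fit, to be read beside its 7.28% higher and 7.12% lower over all genes. The 4-library fit called 0 members of every list.

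**Figure D1:**
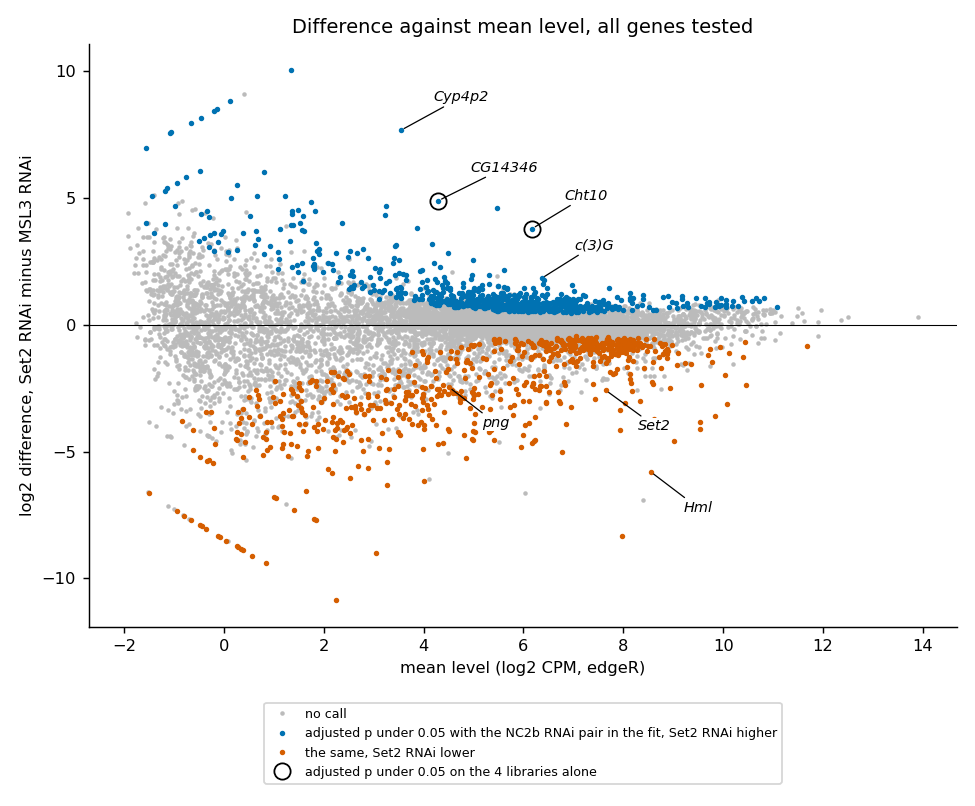
Each point is 1 of the 9253 genes tested, with the edgeR log2 difference (Set2 RNAi minus MSL3 RNAi, 4 libraries) against its mean log2 CPM. Blue and orange points are 6-library calls, and the ringed points are CG14346 and Cht10, which passed on the 4 libraries alone.

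The targeted genes were examined first, as a check of the labels. Set2 (X chromosome, 13413242 to 13421024, dm6) stood at 62.2 and 54.3 CPM in the Set2 RNAi libraries and at 398 and 278 CPM in the MSL3 RNAi libraries. The groups did not overlap, and both Set2 RNAi libraries also lay under NC2b RNAi at 278 and 263 CPM and whole ovaries at 240 CPM. The log2 difference was -2.58 (SE 0.22), with an edgeR adjusted p of 0.0803 on the 4 libraries, 0.0165 in the 6-library fit and 6.76e-17 by DESeq2. The transcript of msl-3 (arm 3L, 7123213 to 7125533) did not follow its label. The libraries labelled MSL3 RNAi held 65.6 and 39.1 CPM of it, Set2 RNAi 53.6 and 67.1 CPM, so the groups overlapped. The log2 difference for msl-3 was 0.15 (95% interval -0.50 to 0.81, edgeR adjusted p 0.709), and whole ovaries held 24.5 CPM. Its exons overlap form3 on the opposite strand, and the strand setting of the counting is not given, so reads of form3 may be among these counts. The libraries labelled MSL3 RNAi are therefore named by their label throughout. Exons of other genes named here also overlap a gene on the opposite strand: Dcr-2, NC2beta, bam, osk, c(2)M, cona, rec, mei-218, nod, mael, trk, pll, Obp99c, CG16926, CG13921, RpL39, RpL36A, RpL24-like, mRpS21, mRpL11, Prosbeta4, eIF2beta, Ns2, Spt6, Act87E, VGlut, Cyp6g1, dib, spo, Hsp68, Dif, beta-Spec, raptor, Ilp8 and lncRNA:roX1. Exons of osk, mei-W68, mei-218, eIF4G2, Kdm4B, squ, Ilp8, Octbeta2R, Dhc64C and raptor overlap another gene on their own strand, which strand cannot separate.

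Dcr-2, the endonuclease encoded by the shared transgene and by the fly's own gene, stood at 914 and 701 CPM in Set2 RNAi against 342 and 362 CPM under the MSL3 RNAi label. The groups did not overlap, with a log2 difference of 1.15 (SE 0.25), an edgeR adjusted p of 0.0861 on the 4 libraries and 0.0315 in the 6-library fit. NC2b RNAi was at 335 and 310 CPM and whole ovaries at 6786 CPM, so the RNAi groups differed from the driver line far more than from each other. NC2beta, a subunit of the NC2 transcription cofactor, was at 7.10 and 11.3 CPM against 7.78 and 6.88 CPM, with overlapping groups. Among eye-colour genes, v stood at 0.129 and 0.193 CPM in Set2 RNAi against 1.90 and 2.96 CPM in MSL3 RNAi (6-library adjusted p 0.0315).

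**Figure D2:**
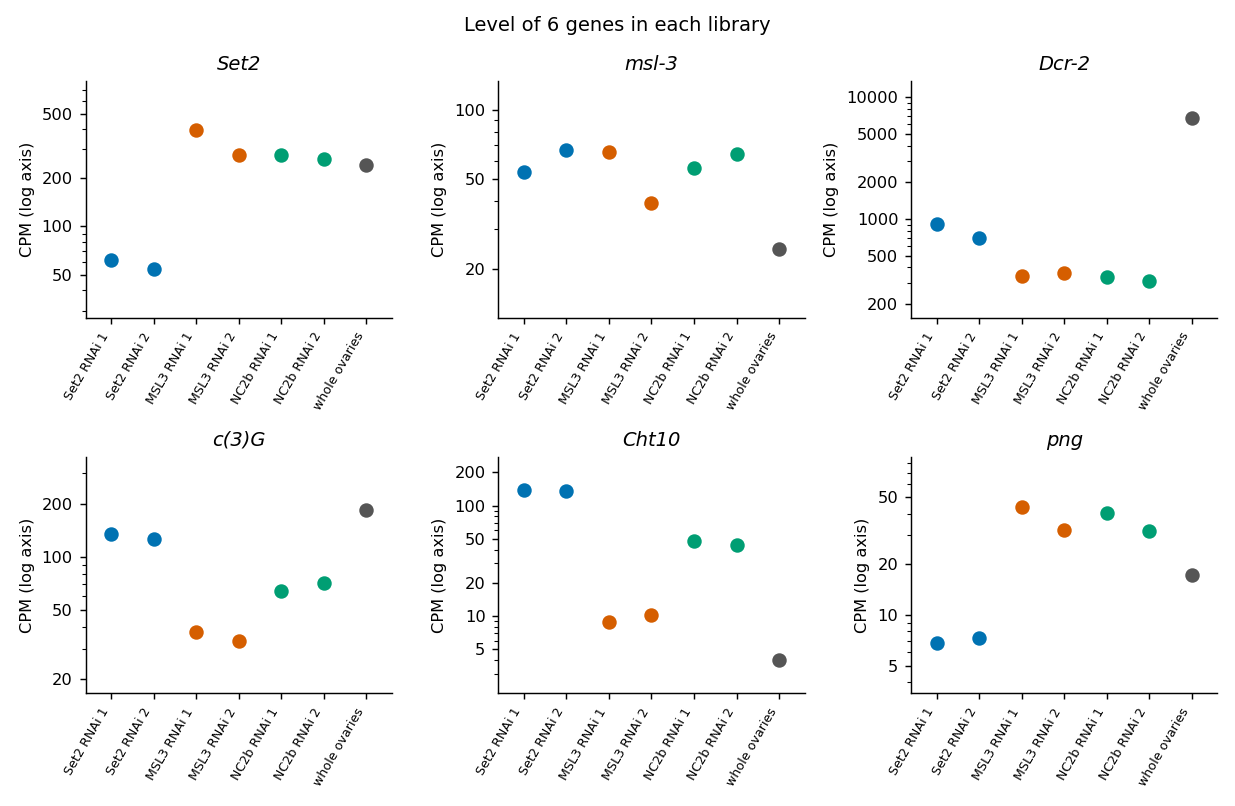
Points show CPM on log axes in each of 7 libraries for Set2, msl-3, Dcr-2, c(3)G, Cht10 and png. Set2 and png lie lower, and c(3)G, Cht10 and Dcr-2 higher, in both Set2 RNAi libraries than in both MSL3 RNAi libraries, while msl-3 overlaps.

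The 2 genes that passed on the 4 libraries were both far higher in Set2 RNAi than in the MSL3 RNAi and NC2b RNAi libraries. Cht10, a member of the chitinase family (arm 2L, 22999574 to 23025915), stood at 138 and 136 CPM in Set2 RNAi against 8.79 and 10.2 CPM in MSL3 RNAi, a log2 difference of 3.79 (SE 0.20, edgeR adjusted p 0.0359). NC2b RNAi lay between them at 48.0 and 44.3 CPM, and whole ovaries held 4.00 CPM. CG14346 (arm 2L, 1367996 to 1369050) stood at 35.4 and 42.4 CPM in Set2 RNAi against 1.32 and 1.18 CPM in MSL3 RNAi, a log2 difference of 4.89 (SE 0.27, edgeR adjusted p 0.0359). NC2b RNAi was at 0.649 and 1.34 CPM, as low as MSL3 RNAi. Both calls were lost without either Set2 RNAi library.

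The next genes in order of p did not pass on the 4 libraries but were called in the 6-library fit, each with groups that did not overlap. Higher in Set2 RNAi was gNacalpha, a germline form of the nascent polypeptide-associated complex that meets new proteins at the ribosome, at 95.2 and 77.4 against 2.76 and 3.98 CPM (6-library adjusted p 0.0118). Cyp4p2, a cytochrome P450, was at 18.9 and 29.1 CPM in Set2 RNAi against 0.0574 and 0.159 CPM in MSL3 RNAi, but NC2b RNAi was higher still at 52.5 and 55.3 CPM. Six4, a homeodomain factor of the mesoderm and somatic gonad, was at 38.2 and 41.5 against 5.92 and 4.97 CPM, with NC2b RNAi at 32.2 and 26.3 CPM. For Cyp4p2 and Six4 the MSL3 RNAi libraries were thus the low ones among the 3 RNAi labels. lncRNA:CR32773 (log2 difference 4.68), CG42857 (3.17), CG31517 (2.45), Nepl3 (1.58), Tina-1 (1.46) and CG9586 (1.46) completed the higher set. The exons of CG31517, Nepl3 and CG9586 overlap a gene on the opposite strand.

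On the lower side, several leading genes are known from tissues outside the germline. CCHa2, a nutrient-responsive peptide hormone, stood at 2.91 and 2.37 CPM in Set2 RNAi against 38.6 and 65.1 CPM in MSL3 RNAi. Apoltp, a lipid transfer protein of the fat body, was at 2.13 and 2.70 against 30.0 and 53.4 CPM, and dpy, a giant extracellular matrix protein, at 4.20 and 4.58 against 49.2 and 99.6 CPM. In all 3 the groups were apart, with log2 differences of -4.37, -4.18 and -4.16. Whole ovaries lay under Set2 RNAi in each, at 0 CPM of CCHa2, 0.397 CPM of Apoltp and 0.298 CPM of dpy. Obp99c, CG10621, CG16926, CG13921 and Cyt-b5-r followed with log2 differences between -2.70 and -4.68. The cell-shape regulator fry, at 66.5 and 69.7 against 176 and 189 CPM, and the phosphodiesterase Pde11 (50.6 and 66.7 against 178 and 149 CPM) were lower by 1.48 and 1.54 on the log2 scale, with whole ovaries at 73.2 and 40.2 CPM.

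Contractile genes of the muscle sheath were lower in Set2 RNAi throughout. Of 28 tested, 16 were called lower and 0 higher in the 6-library fit, DESeq2 called 22 lower, and in all 28 both Set2 RNAi libraries lay under both MSL3 RNAi libraries (25.2% of all genes). The median log2 difference was -2.24, beside 0.00 over all genes. Myosin heavy chain, Mhc, stood at 216 and 230 CPM against 1014 and 2698 CPM, and the titin-like bt at 109 and 89.2 against 648 and 2002 CPM. The giant muscle protein Obsc was at 11.5 and 17.9 against 109 and 307 CPM, and the actin Act87E at 27.3 and 32.1 against 88.3 and 141 CPM. In each, MSL3 RNAi 2 was the highest of the 4 libraries. In bulk ovaries, fewer muscle cells and less RNA per muscle cell cannot be told apart.

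The summed level of the muscle list was 4434 and 4353 CPM for Set2 RNAi, 8619 CPM in MSL3 RNAi 1, 22089 CPM in MSL3 RNAi 2, 7787 and 8665 CPM in NC2b RNAi and 2472 CPM in whole ovaries. Without MSL3 RNAi 2 the median log2 difference was -1.19, and without MSL3 RNAi 1 it was -2.86. MSL3 RNAi 1 thus lay near NC2b RNAi, with both Set2 RNAi libraries under them and MSL3 RNAi 2 far above.

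The list of fat body, hemocyte and basement membrane genes gave 11 lower and 0 higher of the 29 tested in the 6-library fit, with a median log2 difference of -3.27 over the 28 tested on the 4 libraries. The blood-cell gene Hml stood at 11.8 and 15.2 CPM in Set2 RNAi against 309 and 1105 CPM in MSL3 RNAi. The phagocytosis receptors eater (1.23 and 1.69 against 15.3 and 56.5 CPM) and NimC1 (3.163 and 3.47 against 26.2 and 92.0 CPM) were arranged the same way. Hml, a defining hemocyte gene, was at 97.3 and 71.9 CPM in NC2b RNAi and at 1.09 CPM in whole ovaries. The summed level of the list was 2915 and 3378 CPM for Set2 RNAi, 4982 and 16640 CPM in MSL3 RNAi 1 and 2, and 5118 and 4275 CPM in NC2b RNAi. The median was -2.28 without MSL3 RNAi 2.

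Of 14 neuron and glia genes in the 6-library fit, 2 were called lower and 0 higher, beside 7.12% and 7.28% of all genes. The list's summed level was 295 and 445 CPM in Set2 RNAi against 507 and 1779 CPM in MSL3 RNAi 1 and 2, and its median moved from -1.29 to -0.09 without MSL3 RNAi 2. VGlut, the vesicular glutamate transporter of motor neurons, had 0 counts in both Set2 RNAi libraries. Pooled over the MSL3 RNAi libraries it had 142, at 1.41 CPM in MSL3 RNAi 1 and 2.96 CPM in MSL3 RNAi 2. It was at least 20.8-fold lower in Set2 RNAi by the exact 95% limit of the depth-adjusted ratio, which covers counting error only. Ace, acetylcholinesterase, stood at 4.00 and 2.89 against 29.8 and 12.8 CPM. Of 6 oviduct, spermatheca and tracheal genes, 2 were called lower, both octopamine receptors: Oamb (15.3 and 17.7 against 37.9 and 44.8 CPM) and Octbeta2R (11.7 and 15.9 against 32.2 and 74.8 CPM). How far attached tissue in MSL3 RNAi 2 enters the other results was not tested.

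**Figure D3:**
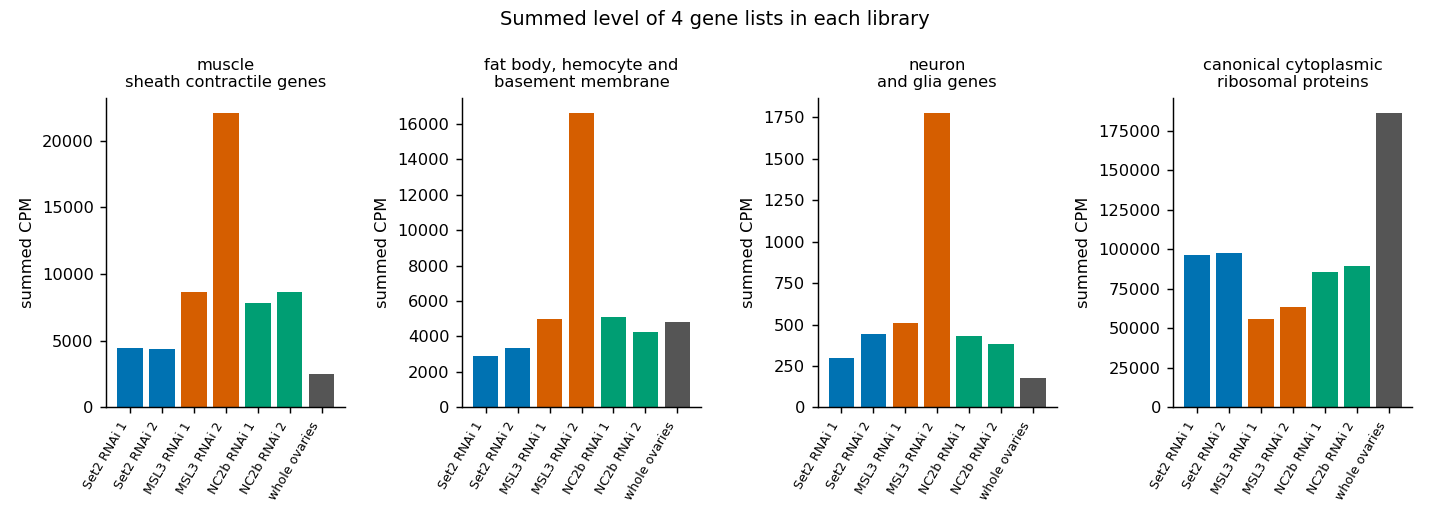
Bars show the summed CPM of 4 gene lists in 7 libraries. MSL3 RNAi 2 is highest for muscle, fat body with hemocyte, and nerve genes, while both MSL3 RNAi libraries are lowest for cytoplasmic ribosomal proteins.

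Genes of cytochrome P450 and detoxification leaned the same way, with 2 higher and 11 lower of the 74 in the 6-library fit. Over all genes 7.28% were higher and 7.12% lower. The list's median was -1.04 over the 71 tested on the 4 libraries, and -0.51 without MSL3 RNAi 2. Cyp6g1, known for insecticide resistance, stood at 2.91 and 4.10 against 26.3 and 20.1 CPM, and Cyp12a4 at 1.16 and 1.54 against 11.3 and 11.5 CPM. In these 2 genes MSL3 RNAi 1 and 2 were close. Cyp4g1, which makes cuticle hydrocarbons in oenocytes, stood at 24.98 and 27.8 against 191 and 703 CPM, with MSL3 RNAi 2 again the highest. Of 30 immune peptides and effectors in the 6-library fit, 1 was called lower and 0 higher, both under the shares of all genes. The call was the NF-kappaB factor Dif at 19.5 and 23.3 against 46.2 and 162 CPM. The immune median was -0.83 with all 4 libraries and -0.22 without MSL3 RNAi 2.

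Ribosomal protein genes were higher in Set2 RNAi as a block. All 75 canonical cytoplasmic ribosomal protein genes tested had both Set2 RNAi libraries above both MSL3 RNAi libraries (36.4% of all genes), 29 were called higher in the 6-library fit and 0 lower, and DESeq2 called 33. The median log2 difference was 0.63, with 0.50 to 0.78 spanning the middle 50% of the list. RpL39 stood at 325 and 294 CPM against 107 and 113 CPM, RpL38 at 781 and 786 against 375 and 368 CPM, and RpL36A at 1012 and 916 against 436 and 467 CPM. The summed level was 96069 and 97417 CPM for Set2 RNAi, 55987 and 63247 CPM in MSL3 RNAi, 85548 and 89234 CPM in NC2b RNAi and 186428 CPM in whole ovaries. NC2b RNAi thus lay near Set2 RNAi, with MSL3 RNAi the low group: the list's median was 0.08 for Set2 RNAi minus NC2b RNAi and 0.55 for NC2b RNAi minus MSL3 RNAi, 2 values that share the NC2b RNAi libraries. Because CPM are shares of a library, these values give the share of reads and not the amount per ovary.

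Ribosomal protein paralogs pointed the same way, with 5 higher and 0 lower of 9 and a median of 0.85. RpS5b, the germline-enriched partner of RpS5a, was at 657 and 688 against 404 and 290 CPM, and RpL24-like, a factor of large-subunit assembly, at 188 and 221 against 108 and 108 CPM. RpL37-2 stood at 4.78 and 15.5 against 0.431 and 0.732 CPM. RpS19b, an early-germline paralog, was low in all 4 libraries at 2.78 and 5.26 against 1.26 and 3.09 CPM, with overlapping groups and a log2 difference of 0.79 (95% interval -0.94 to 2.53, edgeR adjusted p 0.456). RpS19a was at 1136 and 1209 against 805 and 982 CPM, a log2 difference of 0.33 (95% interval -0.29 to 0.95). Paralogs share sequence, and how the counting treated reads with several places is not given.

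Genes that build ribosomes gave the highest median of the lists, 0.93, with 21 higher and 0 lower of 32. Fib, the fibrillarin that methylates ribosomal RNA, stood at 190 and 186 CPM in Set2 RNAi against 82.5 and 62.8 CPM in MSL3 RNAi, and Polr1B, a subunit of RNA polymerase I, at 125 and 119 against 60.4 and 45.5 CPM. The nucleolar genes Ns2 (147 and 159 against 60.1 and 65.6 CPM) and nclb (84.4 and 84.5 against 40.3 and 33.7 CPM) were as far apart. For Fib, Polr1B, Ns2 and nclb, NC2b RNAi lay between the groups, and whole ovaries lay above Set2 RNAi in Fib (278 CPM), Polr1B (153 CPM), Ns2 (204.97 CPM) and nclb (110 CPM).

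Of 34 translation factors, 8 were called higher and 1 lower, with a median of 0.42. eIF6, which keeps the large subunit from joining early, was at 136 and 114 against 58.1 and 46.1 CPM, and eIF2beta, a subunit of the factor that brings the initiator tRNA, at 439 and 363 against 182 and 147 CPM. The exception was eIF4G2, a relative of the scaffold eIF4G, at 206 and 204.9 against 401 and 308 CPM. Mitochondrial ribosomal proteins gave 36 higher and 0 lower of 70, all 70 with groups apart, and a median of 0.75. Among them mRpS21 was at 22.3 and 16.65 against 4.68 and 4.84 CPM and mRpL11 at 38.9 and 38.03 against 18.0 and 14.5 CPM. Oxidative phosphorylation gave 8 higher and 0 lower of 57 with a median of 0.32, led by ATPsynG (131 and 124 against 62.3 and 68.02 CPM). The proteasome gave 2 higher and 0 lower of 32, namely Prosbeta4 and Prosalpha7, with a median of 0.33. Over all genes 7.28% were called higher and 7.12% lower, so the proteasome's share of higher calls was under that of all genes. Its groups were apart in 30 on the higher side and 0 on the lower, beside 36.4% and 25.2% of all genes. The proteasome median was -0.07 for Set2 RNAi minus NC2b RNAi and 0.35 for NC2b RNAi minus MSL3 RNAi.

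The medians of these 7 lists stayed above 0 whichever of the 4 libraries was left out and under library totals, upper-quartile scaling and DESeq2 size factors. Over the libraries left out, the ribosomal, mitochondrial ribosomal and ribosome biogenesis medians ranged from 0.49 to 1.07. All 6-library calls among the canonical ribosomal proteins were lost without either Set2 RNAi library, and also without either NC2b RNAi library. On the 4 libraries, that list's median was 0.49 with MSL3 RNAi 1 left out and 0.77 with MSL3 RNAi 2 left out.

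**Figure D4:**
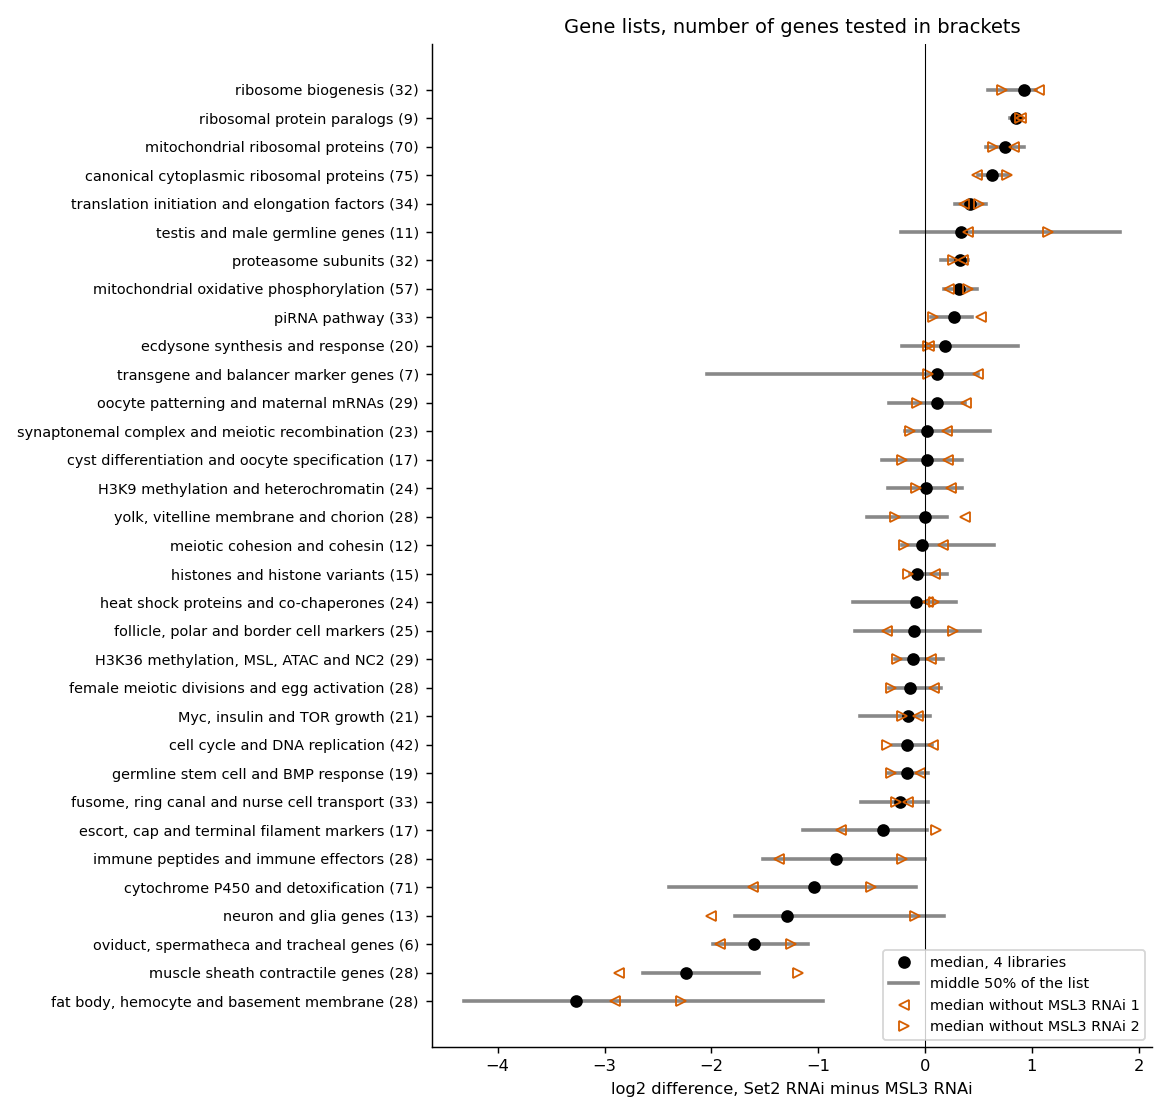
Dots mark the median log2 difference (Set2 RNAi minus MSL3 RNAi) of each gene list, lines its middle 50%, and open triangles the median without MSL3 RNAi 1 or 2. Ribosome biogenesis (0.93) is at the top and the fat body and hemocyte list (-3.27) at the bottom, and the muscle median moves to -1.19 without MSL3 RNAi 2.

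The TOR kinase, which promotes ribosome production, lay the other way. mTor stood at 106 and 110 CPM in Set2 RNAi against 213 and 177 CPM in MSL3 RNAi, a log2 difference of -0.91 (6-library adjusted p 0.0294). Its partner raptor was at 106 and 115.4 against 241 and 158 CPM, and rictor, of the second TOR complex, at 126 and 135 against 228 and 162 CPM without a 6-library call. Of 21 genes of Myc, insulin and TOR growth, 0 were higher and 3 lower, beside 7.28% and 7.12% of all genes. The 3 were mTor, raptor and the insulin-like peptide Ilp8.

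Gene length tracked the difference. Over the 3015 shortest genes (up to 1865 bases from end to end, introns included) the median log2 difference was 0.35, with 414 called higher and 94 lower in the 6-library fit. Over the middle 3014 it was 0.01 with 184 and 133, and over the 3015 longest (above 4627 bases) it was -0.34 with 76 and 434. Across 9044 genes with a known place Spearman's rho between length and log2 difference was -0.385. Within the Set2 RNAi pair it was 0.0572 and within the MSL3 RNAi pair -0.0874, though the longest 905 genes had a median difference of -0.41 for MSL3 RNAi 1 minus 2. The short-gene median was 0.38 without MSL3 RNAi 1 and 0.34 without MSL3 RNAi 2.

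Length and list moved together. Among the 3015 shortest genes were 57 of the 75 canonical ribosomal protein genes, 68 of the 70 mitochondrial ribosomal protein genes and 42 of the 57 oxidative phosphorylation genes, but 8 of the 32 ribosome biogenesis genes. Among the 3015 longest were 20 of the 28 muscle genes and 27 of the 33 genes of the fusome, ring canals and nurse cell transport. They also held 12 of the 21 genes of Myc, insulin and TOR growth. The part of length in the list results was not tested.

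**Figure D5:**
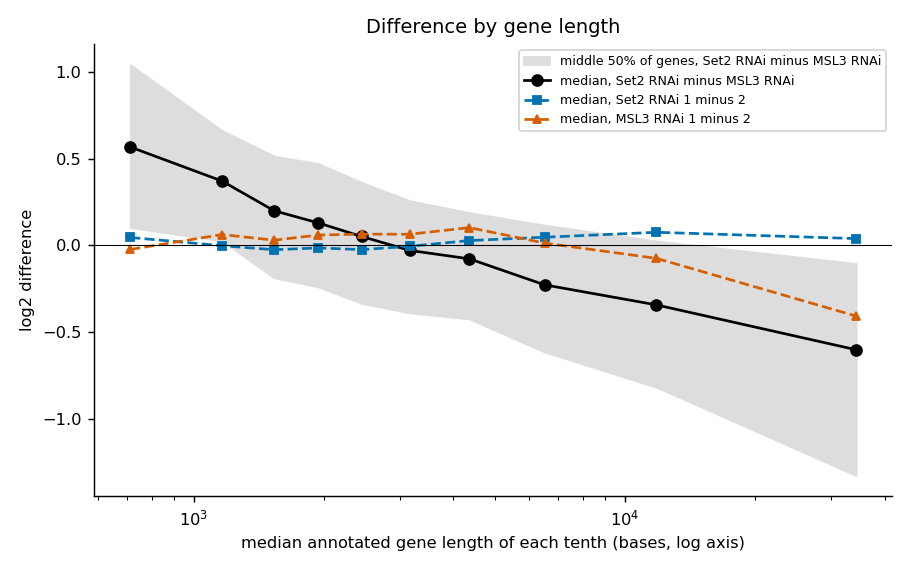
Medians of the log2 difference in 10 equal groups of genes by annotated length (log axis), with the middle 50% of genes shaded, for Set2 RNAi minus MSL3 RNAi and for the replicates of each group. The median falls from 0.57 in the shortest group to -0.60 in the longest, and replicate medians stay near 0 except in the longest group of MSL3 RNAi.

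Among the 33 fusome, ring canal and transport genes, 6 were called lower and 0 higher, beside 7.12% and 7.28% of all genes. The list's median was -0.23. The spectraplakin shot, which carries microtubules on the fusome, stood at 144 and 118 CPM in Set2 RNAi against 343 and 452 CPM in MSL3 RNAi. The dynein heavy chain Dhc64C, the motor of transport into the oocyte, was at 300 and 257 against 706 and 505 CPM, and the fusome spectrin beta-Spec at 188 and 226 against 386 and 889 CPM. beta-Spec and shot also act in muscle and nerve, and both were highest in MSL3 RNAi 2 among the 4 libraries. fwd, a phosphatidylinositol kinase of cytokinesis, was at 258 and 236 against 444 and 348 CPM.

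Among meiotic genes 1 structural gene stood out. c(3)G, the transverse filament of the synaptonemal complex (arm 3R, 15789473 to 15792579), stood at 135 and 126 CPM in Set2 RNAi against 37.4 and 33.4 CPM in MSL3 RNAi. The log2 difference was 1.83 (SE 0.16), with an edgeR adjusted p of 0.0803 on the 4 libraries and 0.0165 in the 6-library fit. NC2b RNAi lay between at 63.6 and 71.5 CPM, and whole ovaries at 186 CPM. Its exons overlap Uros2 on the opposite strand. In the 6-library fit, the list of synaptonemal complex and recombination genes held a smaller share of calls than all genes (7.28% higher, 7.12% lower). c(3)G was its only call, in either direction, among 23 genes. At an unadjusted p under 0.05, 3 were higher and 1 lower, and groups were apart in 9 on the higher side and 2 on the lower, beside 36.4% and 25.2% of all genes. The list's median was 0.02, but 0.21 without MSL3 RNAi 1 and -0.14 without MSL3 RNAi 2.

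Other parts of the complex were less far apart or at low levels. The lateral element gene c(2)M was at 33.0 and 41.1 against 25.9 and 18.1 CPM, apart but with an edgeR adjusted p of 0.13. The central region gene cona overlapped at 1.42 and 3.23 against 0.431 and 2.74 CPM. The recombination genes mei-218 (7.62 and 5.16 against 2.30 and 1.15 CPM) and rec (21.4 and 25.2 against 45.2 and 28.6 CPM) lay on opposite sides without a call. The break-forming genes mei-W68 and mei-P22 were under 6 CPM in all 4 libraries, with 95% intervals of -1.93 to 1.53 and -1.24 to 1.10, and hdm was at or under 1.01 CPM. For sister chromatid cohesion, ord was at 6.13 and 12.3 against 5.05 and 5.63 CPM and sunn at 4.97 and 9.56 against 2.38 and 3.53 CPM, both apart and neither called. The acetyltransferase san was the 1 call among 12 cohesion genes, at 152 and 141 against 103 and 81.0 CPM. Over all genes 7.28% were called higher, a share near that of this list.

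Differentiation genes of the early germline differed less. bam, the switch from stem cell to cyst, was at 70.0 and 59.0 CPM against 52.0 and 30.0 CPM, a log2 difference of 0.61 (95% interval -0.12 to 1.35, edgeR adjusted p 0.214). Its partner bgcn lay the other way at 4.52 and 4.15 against 9.39 and 8.91 CPM (-1.13, 6-library adjusted p 0.0715). Rbfox1, an RNA-binding protein of cyst differentiation, was at 137 and 150 against 68.3 and 96.3 CPM, just short of a 6-library call at an adjusted p of 0.0546. Of 17 genes of cyst differentiation, 0 were called higher and 1 lower, shot, and of 19 genes of stem cell upkeep and BMP response none was called by the 6-library fit, with 1 higher and 2 lower at an unadjusted p under 0.05 and 1 lower by DESeq2.

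Maternal and late-oogenesis lists held calls near or under the shares over all genes, 7.28% higher and 7.12% lower. png, the kinase that starts translation at egg activation (X chromosome, 1356488 to 1357601), stood at 6.84 and 7.33 CPM in Set2 RNAi against 43.6 and 31.8 CPM in MSL3 RNAi. NC2b RNAi was at 40.2 and 31.6 CPM, so Set2 RNAi was the low group of the 3. The log2 difference was -2.46 (SE 0.25, 6-library adjusted p 0.0233). nod, the kinesin that segregates chromosomes without crossovers, was at 42.3 and 37.7 against 122 and 77.9 CPM, with NC2b RNAi at 118 and 98.0 CPM. Whole ovaries held 17.2 CPM of png and 32.2 CPM of nod, the latter under Set2 RNAi. png and nod were the 2 calls among 28 genes of the meiotic divisions and egg activation, and none was higher.

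The posterior determinant osk stood at 2190 and 1705 against 1566 and 902 CPM (0.62, 95% interval -0.29 to 1.53). Of 29 patterning genes, mael and trk were called higher at 130 and 143 against 92.7 and 67.1 CPM and at 9.10 and 8.54 against 3.27 and 2.58 CPM. The Toll pathway kinase pll and the actin nucleator capu were called lower, pll at 33.7 and 35.4 against 53.2 and 46.1 CPM and capu at 46.9 and 64.4 against 81.9 and 113 CPM. Of 28 yolk and eggshell genes, 1 was lower, the chorion gene Cp38 at 2519 and 2222 against 4312 and 3919 CPM. DESeq2 called 4 of them lower and 0 higher, beside 12.2% and 6.68% of all genes. Groups were apart in 8 on the lower side and 0 on the higher, beside 25.2% and 36.4% of all genes. The list's median of 0.00 was unstable, at -0.60 without Set2 RNAi 1, 0.38 without MSL3 RNAi 1 and -0.28 without MSL3 RNAi 2. The 42 genes of the cell cycle and replication held no 6-library call, with 1 higher and 1 lower at an unadjusted p under 0.05, 1 lower by DESeq2, and a median of -0.16. CycB3, a cyclin of the meiotic divisions, was at 275 and 315 against 553 and 386 CPM.

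In the list around H3K36 methylation, MSL, ATAC and NC2, groups were apart in 6 on the higher side and 6 on the lower. Over all genes these shares were 36.4% and 25.2%, and the list's median was -0.11. Called lower were 4 of 29 genes and higher 0, beside 7.12% and 7.28% of all genes, and 1 of the 4 was Set2, the RNAi target. Beside Set2 itself they were the elongation factor Spt6 (211 and 192 against 359 and 286 CPM), the methyltransferase ash1 (159 and 166 against 329 and 218.02 CPM) and the demethylase Kdm4B (9.10 and 11.1 against 26.7 and 16.2 CPM). roX1, an RNA of the male MSL complex, was at or under 1.34 CPM in all 4 libraries. Genes on the X chromosome had a median of 0.02 over 1611 genes with 95 higher and 104 lower, beside medians of -0.02 to 0.03 on the arms of chromosomes 2 and 3. The 83 genes on chromosome 4 had a median of -0.24, with 3 higher and 15 lower.

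Heterochromatin genes gave 1 higher and 3 lower of 24, beside 7.28% and 7.12% of all genes. moon, a TFIIA-like factor that opens piRNA clusters to transcription, stood at 2.26 and 4.00 CPM in Set2 RNAi against 21.9 and 13.2 CPM in MSL3 RNAi, with NC2b RNAi at 29.6 and 39.0 CPM. Whole ovaries held 2.65 CPM of moon, within the range of the Set2 RNAi libraries. Hmr was at 40.6 and 58.6 against 125 and 91.0 CPM, and the HP1 partner Su(var)2-HP2 at 232 and 201 against 429 and 305 CPM. HP6 stood at 2.45 and 5.89 CPM in Set2 RNAi against 0.316 and 0.255 CPM in MSL3 RNAi. Of 33 piRNA pathway genes, 4 were called higher and 1 lower, again moon, and the median was 0.28. Those named among the higher were arx (54.9 and 62.0 against 30.6 and 25.1 CPM), which works with Piwi in silencing, squ (122 and 118 against 62.3 and 45.1 CPM) and thoc7 (75.2 and 79.6 against 45.4 and 40.6 CPM), an RNA export factor.

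The somatic gonad lists held few calls, on both sides, beside 7.28% higher and 7.12% lower over all genes. Their medians turned with 1 library. The escort, cap and terminal filament median was -0.39, but 0.10 without MSL3 RNAi 2 and -0.79 without MSL3 RNAi 1, and the follicle, polar and border cell median went from -0.11 to 0.26 without MSL3 RNAi 2 and to 0.062 without Set2 RNAi 2. tj, a transcription factor of escort and follicle cells, stood at 228 and 150 CPM in Set2 RNAi against 70.0 and 55.5 CPM in MSL3 RNAi, with NC2b RNAi at 227 and 253 CPM. The MSL3 RNAi libraries were thus the low ones for tj. Of 18 escort, cap and terminal filament genes in the 6-library fit, tj and stet, a rhomboid protease, were called higher and bab2 lower. Of 25 follicle, polar and border cell genes, kek1, an inhibitor of the EGF receptor, was higher at 51.8 and 48.3 against 16.1 and 21.5 CPM, and Ilp8 was lower. In this list both directions were under the shares of all genes. Ecdysone genes gave 3 higher and 0 lower of 20, beside 7.28% and 7.12% of all genes. The 3 were the synthesis enzymes dib (1.81 and 1.93 against 0.258 and 0.223 CPM) and spo (34.2 and 17.6 against 9.96 and 5.12 CPM), and Cyp18a1 (44.5 and 59.6 against 30.4 and 26.3 CPM), which inactivates the hormone.

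Testis genes had a low summed level in both groups. Of 11 tested, 2 were called higher, sa and vis, and 0 lower, beside 7.28% and 7.12% of all genes. DESeq2 called 4 higher and 0 lower, beside 6.68% and 12.2% of all genes. dany was at 11.2 and 23.9 against 6.83 and 2.48 CPM, with NC2b RNAi at 0.678 and 0.581 CPM. Taf12L was at 3.10 and 7.19 against 1.35 and 1.46 CPM, and neither had a 6-library call. sa, a testis-specific TAF of meiotic arrest control, had 135 counts over the Set2 RNAi libraries against 3 over the MSL3 RNAi libraries, a depth-adjusted ratio of 82.3 (exact 95% interval 27.6 to 404, counting error only). vis was at 2.58 and 4.44 against 0.861 and 0.605 CPM. The list's summed level was 73.5 and 92.6 CPM against 49.1 and 56.9 CPM.

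Heat shock genes lay on both sides, and no label of either group names a heat shock. None of 24 was called in the 6-library fit. At an unadjusted p under 0.05, 0 were higher and 3 lower, beside 15.1% and 16.0% of all genes. DESeq2 called 0 higher and 3 lower, beside 6.68% and 12.2% of all genes. Groups were apart in 9 on the higher side and 8 on the lower, beside 36.4% and 25.2% of all genes. Summed over the list, Set2 RNAi held 18012 and 17903 CPM against 16538 and 13067 CPM for MSL3 RNAi. Hsp68 was at 12.8 and 19.2 against 29.5 and 81.8 CPM and the co-chaperone stv at 20.3 and 36.5 against 47.7 and 141 CPM, both highest in MSL3 RNAi 2. The 15 histone and histone-variant genes held no 6-library call, with 1 higher and 1 lower at an unadjusted p under 0.05 and none by DESeq2.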

How the data were processed

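The authors deposited unnormalized counts of reads for every gene. HISAT2 2.1.0, featureCounts 1.6.0.4, edgeR 3.16.5 and the build dm6 are named in the submitters' processing notes. Poly(A) RNA was fragmented for 13 minutes before library construction, per the labels' protocols. Neither annotation release nor strand setting of the counting is recorded there. Each table held 17023 gene IDs, of which 16647 had a symbol. Gene places come from Ensembl release 115 (BDGP 6.54, dm6 coordinates). The 8 small polysome tables were not used.

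The main test was edgeR 4.0.16 under R 4.3.3 (filterByExpr with a minimum of 10 counts and a total of 15, TMM scaling, quasi-likelihood test, Benjamini-Hochberg adjustment over all genes, threshold 0.05). DESeq2 1.42.0 and limma 3.58.1 were alternatives. CPM divide a count by its library total. A called gene has an adjusted p under 0.05. SEs are the log2 difference over the root of F, and 95% intervals use the fit's degrees of freedom. Fitted differences depend on the scaling, and the precision on 2 libraries a group.

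Genes were named by rule: the targets and meiotic genes always, the 12 largest differences per direction (at a mean log2 CPM of 2 or more, groups apart, filled by smallest p where fewer passed), the 4 smallest p in each list, and the 4 most abundant passing genes per direction. Not every gene picked by these rules is described in the text. Among those left out, Listericin of the immune list and wbl and slbo of the follicle list were higher in Set2 RNAi. BomS3 and CecC of the immune list were lower, and none of these had a 6-library call. The comparison and the 34 lists were chosen with earlier results of these data known. Alternatives planned numbered 17, and 6 that leave 1 library out of the fit with NC2b RNAi were chosen after seeing the data.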

Additional observations from a re-analysis of the deposited data

Results flagged for a closer look

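In 2 genes, Set2 RNAi and MSL3 RNAi moved in opposite directions when each was set against its own pair of hsbam libraries, and edgeR's test of the difference between those 2 differences passed. For CG14346 that difference was 7.44 on the log2 scale (SE 0.51, edgeR adjusted p 0.00998), from 3.96 for Set2 RNAi over its hsbam pair and -3.48 for MSL3 RNAi over its own. The hsbam levels were 13.5 and 14.9 CPM beside MSL3 RNAi and 1.99 and 2.55 CPM beside Set2 RNAi, so the control pairs differed as well. For gNacalpha it was 7.23 (SE 0.66, edgeR adjusted p 0.0383), from 3.50 and -3.73. Its hsbam levels were 32.9 and 58.0 CPM beside MSL3 RNAi and 4.88 and 9.10 CPM beside Set2 RNAi, so here too the control pairs differed. The direct difference between Set2 RNAi and MSL3 RNAi was 4.62 on the log2 scale for gNacalpha and 4.89 for CG14346. No other gene passed. The hsbam libraries are of another genotype than either RNAi group, so differences from them do not give the effect of RNAi alone. Libraries within an hsbam pair also differed from each other. In the pair beside Set2 RNAi, osk was at 958 and 11.1 CPM and Set2 at 266 and 37.2 CPM. In the pair beside MSL3 RNAi, osk was at 81.2 and 15.5 CPM and bam at 4.61 and 71.9 CPM.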

How the results depend on the processing

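The count of 2 calls on the 4 libraries (2 higher, 0 lower) held with DESeq2 size factors, with a 2-fold minimum, with scaling without eggshell genes and, as a count, in the difference of differences with the hsbam pairs, and it was 3 with upper-quartile scaling. It was 15 with library totals alone (8 higher, 7 lower), 1410 with no filter on low counts (442 and 968), 1809 with DESeq2 (640 and 1169) and 1374 in the fit with the NC2b RNAi libraries (695 and 679). It was 0 with at least 50 counts in every library of one group, with limma-voom and with all 23 libraries in 1 fit, and 0 with the replicate block. Replicate numbers were not taken to pair the libraries: the differences between numbers 1 and 2 correlated at 0.103 across genes, over only 2 pairs. Leaving out 1 library of the 4 gave 0 to 2953 calls (0 to 1184 higher, 0 to 1769 lower). With NC2b RNAi in the fit it gave 0 without either Set2 RNAi library, 4 without either NC2b RNAi library (4 higher, 0 lower), 1833 without MSL3 RNAi 2 (808 and 1025) and 3151 without MSL3 RNAi 1 (1315 and 1836). An arm left with 1 library is assumed to vary like the other groups. The cause of these changes was not tested. Over the libraries left out, the log2 difference ranged from -0.16 to 0.52 for msl-3, from -0.036 to 0.50 for NC2beta, from -0.35 to 2.37 for cona, from -0.79 to 0.31 for mei-W68 and from -0.37 to 0.28 for mei-P22. With NC2b RNAi in the fit, msl-3 turned to -0.15 without MSL3 RNAi 2, NC2beta to -0.054, cona to -0.19 and mei-W68 to 0.21 without Set2 RNAi 2, and cona to -0.33, mei-W68 to 0.32 and mei-P22 to 0.29 without MSL3 RNAi 1. In the difference of differences, NC2beta was -0.076, bam -1.21, bgcn 0.53, osk -2.84, mei-P22 1.89, rec 0.20, RpL38 -0.22 and RpL24-like -0.14, none past the threshold. Promoter motifs were not run. With 2 libraries a group, depth limits genes of a few counts, such as hdm and roX1.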
